A study of Mus musculus with 4 samples.

Results

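Nonsense-mediated mRNA decay (NMD) removes mRNAs on which a ribosome stops too early, and it also lowers many normal mRNAs whose stop codon lies upstream of an exon junction or of a long 3′ untranslated region. The helicase UPF1 sits at the stalled ribosome, UPF2 links it to UPF3A or UPF3B at a downstream exon junction complex, and the kinase SMG1, held in check by SMG8 and SMG9, then phosphorylates UPF1. Phosphorylated UPF1 recruits SMG6, which cuts the mRNA near the stop codon, and SMG5, which helps to bring in deadenylation and decapping. In neurons the pathway acts on mRNAs such as that of Arc, whose 3′ untranslated region holds introns.

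The 9 genes described here are Upf1, Upf2, Upf3a, Upf3b, Smg1, Smg5, Smg6, Smg8 and Smg9, out of 28193 genes in the deposited count table. They were taken by gene name, as a set chosen by the counts of Upf2, which were higher after sleep deprivation (SD) in these same libraries. The SD values of the set are therefore given as a description, with no p-value for any of the 9. Whether each passed the threshold of the fit over all genes is stated below as part of that description and supports nothing. All 9 were in the table once and all 9 passed the filter on low counts, with 881 counts as the lowest value of any of them in any library.

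fosTRAP-seq sequenced the mRNA on HA-tagged ribosomes of the hippocampal area CA1 of male C57BL/6J mice aged 3 to 5 months. All mice, in both groups, had received a virus with a tamoxifen-dependent Cre under the c-Fos promoter and a second virus with Cre-dependent HA-tagged Rpl22, a ribosomal protein, and both groups were given 4-hydroxytamoxifen during 5 h of SD on day 0, so that neurons active in that bout were tagged. On day 7 the SD mice were kept awake for 5 h again by gentle handling while the non-sleep deprived (NSD) mice were left undisturbed, and tissue was taken at ZT 5. Each of the 4 libraries (n = 2 per group) pooled 5 mice, and the labels put 1 NSD and 1 SD library in each of 2 batches. The labels describe the source as dorsal hippocampus with the genotype cFos-Cre:Ribotag, whereas the methods describe dissected CA1 and viral delivery. The 4-hydroxytamoxifen dose of these mice is not given in the sources used here.

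The libraries held 153511673 to 195910205 estimated counts. Counting noise alone did not account for the spread within a group, with a chi-square of 80.6 (NSD pair) and 44.6 (SD pair) for each degree of freedom. Levels are given in CPM, counts relative to a library total scaled by edgeR's TMM factors, and the spread as the standard deviation (s.d.) of n = 2 pools. Markers of excitatory neurons summed to 5954 to 6388 CPM over the libraries and those of CA1 to 1194 to 1468. The 6 markers of GABAergic neurons summed to 719 to 810 CPM, the 5 of the oligodendrocyte lineage to 1284 to 1538 the 5 of astrocytes to 414 to 463 and the 5 of microglia to 54.8 to 71.9, so RNA of other cells was present too. The groups overlapped in these sums, although 3 of 5 CA1 and 2 of 5 excitatory markers were lower in both SD libraries and 1 CA1 marker was higher. They did not for 5 endothelial markers (35.2 and 49.3 CPM in NSD, 29.7 and 20.0 in SD, 4 of 5 lower in both SD libraries), for 5 dentate gyrus markers (127 to 143 CPM in NSD, 111 to 117 in SD, 1 of 5 lower in both SD libraries) or for 5 CA3 markers (85.5 to 89.7 CPM in NSD, 105 in both SD libraries, 1 of the 4 tested higher in both SD libraries and called), and their part in the values below was not tested. All markers passed the filter on low counts, more than 5 in every library, except in CA3, where 4 of 5 did. In such bulk RNA fewer cells of a type and less RNA per cell cannot be told apart.

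Upf2 lies on chromosome 2 from 5956186 to 6061516 (GRCm39, plus strand) with 22 exons in its main transcript, and Smg6 on chromosome 11 from 74816618 to 75055274 (plus strand) with 19 exons. These genes had the highest SD to NSD ratios of the 9, and their promoter windows are shown for that reason. Each window runs from 250 bases before to 50 bases after the transcript start in RefSeq on the older build GRCm38.p6, at chr2:5951219-5951518 for Upf2 and chr11:74925604-74925903 for Smg6, both on the plus strand, and capitals mark the letters GGGCGG on either strand, the core of a GC box.
Upf2: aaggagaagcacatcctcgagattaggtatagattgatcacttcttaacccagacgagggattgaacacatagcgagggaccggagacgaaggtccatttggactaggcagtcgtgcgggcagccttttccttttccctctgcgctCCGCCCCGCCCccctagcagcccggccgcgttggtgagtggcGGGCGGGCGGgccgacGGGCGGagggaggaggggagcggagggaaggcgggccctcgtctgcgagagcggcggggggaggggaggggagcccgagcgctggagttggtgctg
Smg6: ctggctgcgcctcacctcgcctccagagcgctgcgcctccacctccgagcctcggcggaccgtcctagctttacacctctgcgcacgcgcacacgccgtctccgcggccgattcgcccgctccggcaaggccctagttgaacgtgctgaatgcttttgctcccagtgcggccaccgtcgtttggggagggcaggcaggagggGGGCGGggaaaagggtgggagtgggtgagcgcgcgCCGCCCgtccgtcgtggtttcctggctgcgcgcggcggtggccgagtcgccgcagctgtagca
The Upf2 window held GGGCGG at 5 positions and was 66.0% G and C, against a median of 52.7% over the 32841 windows of the same length that were searched. The Smg6 window held it at 2 positions and was 70.7% G and C. Windows of 7 of the 9 genes held these letters, as did 35.7% of all windows. The cAMP response element TGACGTCA, the AP-1 letters TGANTCA and the E-box CACGTG, searched on both strands as sequences known from activity-regulated or clock-regulated promoters, occurred in none of the 9 windows, and in 1.79%, 7.81% and 7.15% of all windows. The shorter TGACG, which is part of the cAMP response element, was found in the window of Upf3b alone among the 9 and in 20.8% of all windows. A match of letters is a description and not a binding site.

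The levels of the 9 mRNAs were compared per kilobase of annotated exon, since a longer mRNA gives more fragments. Upf1 stood highest at 16.6 ± 1.42 CPM per kilobase (s.d. over the 4 libraries), followed by Smg5 at 10.6 ± 0.449, Smg1 at 8.95 ± 0.356, Upf2 at 8.33 ± 1.66, Smg6 at 5.79 ± 0.868, Smg8 at 4.07 ± 0.184, Smg9 at 3.29 ± 0.0568, Upf3b at 1.55 ± 0.0502 and Upf3a at 0.882 ± 0.145. Smg1 and Upf2 overlapped in their ranges over the libraries, as did Upf2 and Smg6, while the other neighbours in this order did not. Against the 15533 protein-coding genes tested that have an annotated exon length, whose median was 2.27 CPM per kilobase, Upf1 was at percentile 88.9 and Upf3a at percentile 32.3. The helicase mRNA was therefore 18.9 times the level of the Upf3a mRNA per kilobase, or 10.2 times with the longest transcript as the length. With that length Upf1 (15.6 to 18.8) and Smg5 (15.8 to 17.5) overlapped at the top and Upf3b (1.63 to 1.76) and Upf3a (1.26 to 1.88) at the bottom. Smg6 then changed places with Upf2 and Smg9 with Smg8, and Smg6 overlapped both Smg1 and Upf2.

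**Figure D1:**
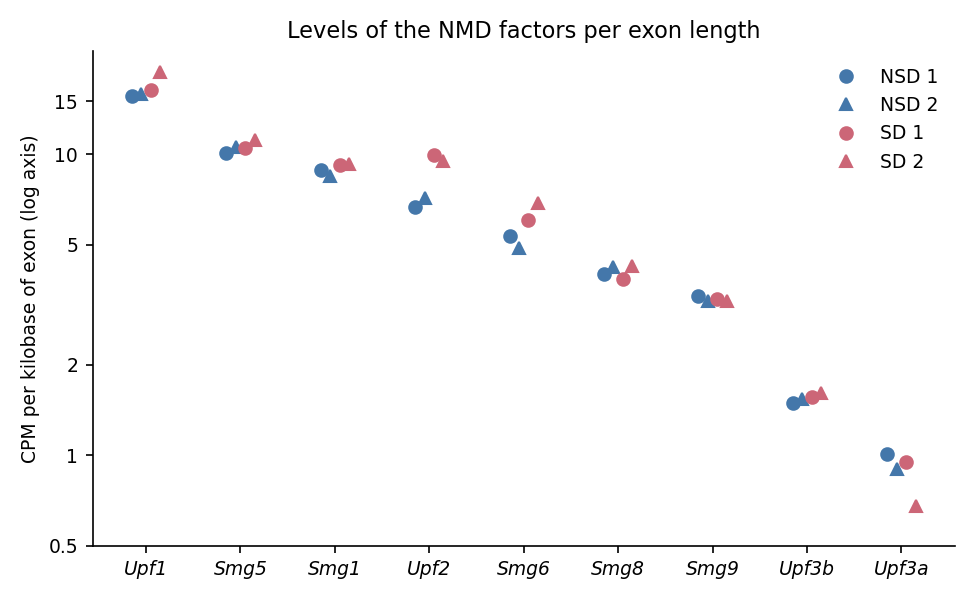
CPM per kilobase of annotated exon on a log axis for the 9 NMD factors, ordered by their mean, with 1 symbol for each library (blue NSD, red SD, circles batch 1, triangles batch 2). Upf1 lies between 15.6 and 18.7 in all libraries and Upf3a between 0.675 and 1.01, and the groups separate most visibly for Upf2.

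Upf2, the adaptor between UPF1 and the UPF3 proteins, had 39.7 and 42.4 CPM in NSD libraries 1 and 2 and 59.2 and 56.6 CPM in SD libraries 1 and 2. Both SD libraries lay well above both NSD libraries, and the libraries of a group lay close together. The NSD mean was 41.1 ± 1.92 CPM and the SD mean 57.9 ± 1.89 CPM (each s.d., n = 2). Their log2 fold change was 0.50 (standard error 0.070), or 41.0% more. Within the batches the log2 difference was 0.58 in batch 1 and 0.42 in batch 2. Since this difference is what the set was chosen for, it supports nothing here.

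Upf1, the ATP-dependent RNA helicase at the centre of the pathway, had 77.5 and 79.2 CPM in NSD and 81.3 and 93.1 in SD. The groups did not overlap, but SD library 1 was close to NSD library 2 and most of the difference came from SD library 2. The log2 fold change was 0.15 (standard error 0.079), with 0.069 in batch 1 and 0.23 in batch 2. It was 0.066 when SD library 2 was left out and 0.25 when SD library 1 was. Upf1 (chromosome 8 from 70784146 to 70806096) shares 448 exon bases with Cers1 on the opposite strand, which had 73.3% of its level, and whether the counting used strand is not given in the sources used here. Cers1 itself had a log2 fold change of 0.10 (standard error 0.084).

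Upf3a and Upf3b encode the paralogous proteins that join UPF2 to the exon junction complex, of which UPF3B is the more active in NMD. Upf3b (chromosome X from 36355174 to 36374019) had 7.65 and 7.91 CPM in NSD and 8.02 and 8.28 in SD, a log2 fold change of 0.067 (standard error 0.11). The groups were in order but only a few percent apart. Upf3a (chromosome 8 from 13835584 to 13849194) had 6.96 and 6.19 CPM in NSD and 6.52 and 4.66 in SD. The lowest of these values belonged to SD library 2, the other SD library lay between the NSD libraries, and the log2 fold change was -0.23 (standard error 0.18). Without SD library 2 it was -0.0009, and without SD library 1 it was -0.50. Within each library the ratio of Upf3b to Upf3a per kilobase was 1.47 and 1.71 in NSD and 1.65 and 2.38 in SD, so the groups overlapped. With the longest transcript as the length it was 0.867 and 1.01 in NSD and 0.970 and 1.40 in SD, so with that length the order of the pair differed between libraries.

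Smg1, the kinase of UPF1 and a relative of mTOR and ATM, had 212 and 204 CPM in NSD and 221 and 222 in SD, a log2 fold change of 0.090 (standard error 0.073). Both SD libraries were higher, and leaving out NSD library 1 gave a log2 fold change of 0.15, leaving out NSD library 2 one of 0.059. Smg8 and Smg9 encode the subunits that bind SMG1 and restrain it. Smg8 had 18.3 and 19.3 CPM in NSD and 17.7 and 19.5 in SD, with a log2 fold change of -0.017 (standard error 0.088). Smg9 had 17.4 and 16.8 CPM in NSD and 17.0 and 16.7 in SD, with a log2 fold change of -0.019 (standard error 0.083). The groups overlapped for both, and the sign of both turned with the scaling, to 0.0058 and 0.0036 in DESeq2. It also turned with single libraries, as Smg8 ran from -0.075 (SD library 2 left out) to 0.050 (SD library 1 left out) and Smg9 from -0.043 (NSD library 2 left out) to 0.036 (NSD library 1 left out). Their ratio per kilobase was nearly the same in both groups, at 1.18 and 1.29 in NSD and 1.17 and 1.31 in SD, or 0.748 and 0.818 in NSD and 0.740 and 0.827 in SD with the longest transcript as the length.

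Smg6, the endonuclease that cuts NMD targets, had 63.5 and 58.2 CPM in NSD and 72.1 and 81.8 in SD. Both SD libraries were above both NSD libraries, with more spread than for Upf2. The NSD mean was 60.9 ± 3.78 CPM and the SD mean 77.0 ± 6.83 CPM (each s.d., n = 2). Their log2 fold change was 0.34 (standard error 0.083), or 26.5% more. In batch 1 the log2 difference was 0.18 and in batch 2 it was 0.49. Smg6 shares 212 exon bases with Srr on the opposite strand, which had 112% of its level and a log2 fold change of -0.023 (standard error 0.076), and 1629 with Hic1, which had 3.31% of its level. Smg5, which lacks nuclease activity and recruits other decay enzymes, had 70.5 and 74.1 CPM in NSD and 73.5 and 78.1 in SD, a log2 fold change of 0.068 (standard error 0.068). Here the groups overlapped, and the log2 fold change ran from 0.035 with SD library 2 left out to 0.11 with SD library 1 left out. The ratio of Smg6 to Smg5 per kilobase was 0.529 and 0.461 in NSD and 0.576 and 0.615 in SD, so the mRNA of the nuclease was higher relative to that of Smg5 in both SD libraries.

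Upf2 was also higher relative to its partners within each library, a measure that does not depend on the scaling between libraries. Per kilobase the ratio of Upf2 to Upf1 was 0.429 and 0.449 in NSD and 0.610 and 0.509 in SD. The ratio of Upf2 to Smg1 was 0.754 and 0.841 in NSD and 1.08 and 1.03 in SD, and that of Upf2 to Upf3b was 4.49 and 4.65 in NSD and 6.40 and 5.92 in SD. In all 3 ratios both SD libraries were above both NSD libraries, also with the longest transcript as the length, which put Upf2 below Smg1 in every library (0.536 to 0.771). These ratios use the same counts that chose Upf2.

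**Figure D2:**
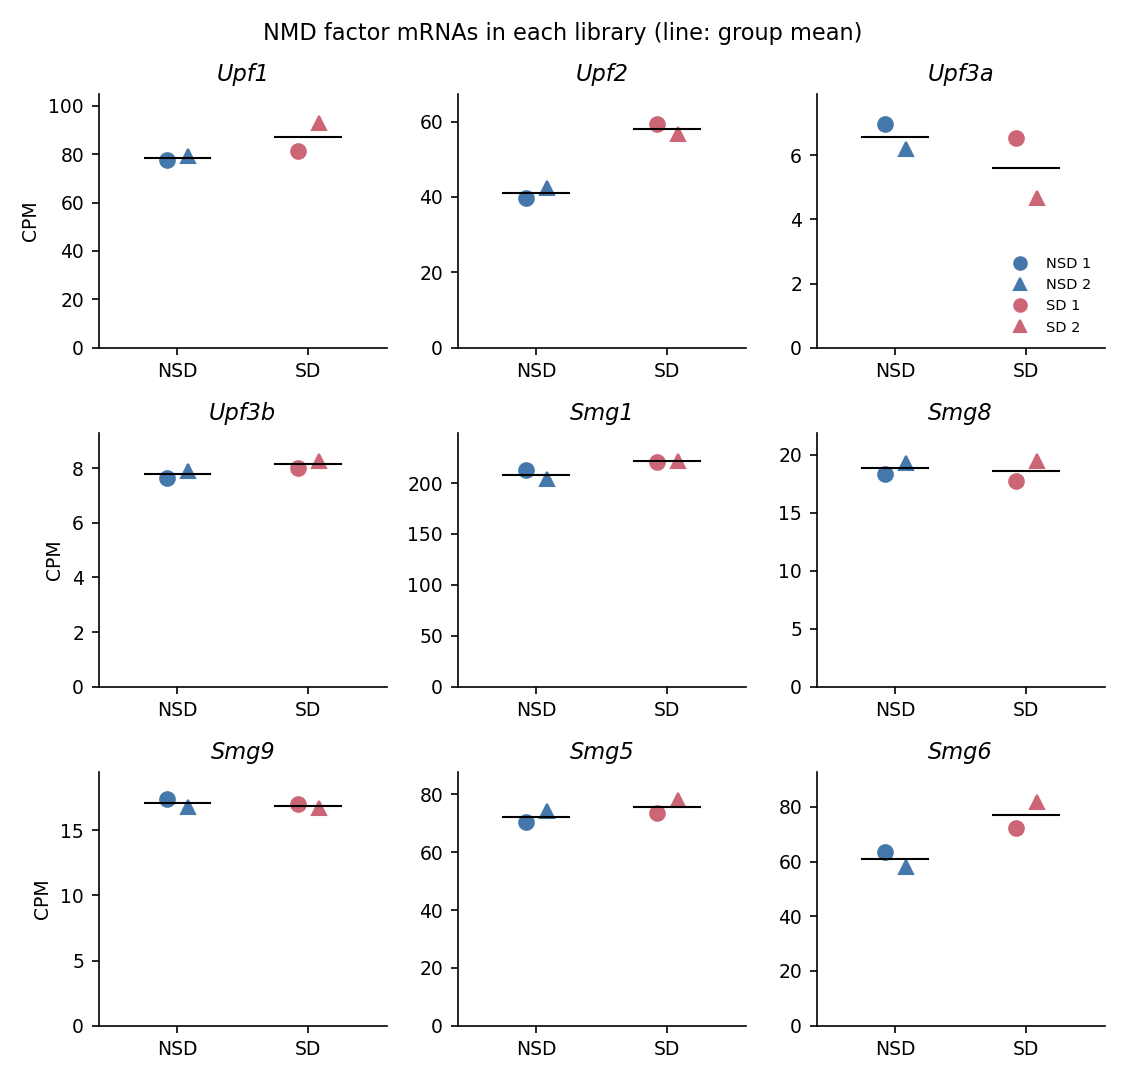
CPM of each NMD factor by group, 1 symbol for each library (circles batch 1, triangles batch 2) and a line at the group mean, with axes that start at 0. Upf2 and Smg6 show the clearest gap between groups, Upf3a is lowest in SD library 2, and Smg8 and Smg9 lie at the same level in both groups.

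A gene was called when edgeR's quasi-likelihood test gave an adjusted p under 0.05 over all genes and a fold change over 1.2. Of the 9 genes 1, Upf2, was called higher and 0 lower, where 0.770% of the 22338 genes tested were called higher and 2.33% lower. With the batch number as a block, Upf2 and Smg6 were called, where 2.99% of all genes were called higher and 8.47% lower. DESeq2 called the same 2 genes, where it called 8.81% of all genes in either direction (671 higher and 1296 lower). Of the 15551 protein-coding genes tested, edgeR called 148 higher and 84 lower, 587 and 512 with the block, and DESeq2 610 and 278. Both SD libraries were above both NSD libraries for 5 of the 9 (Upf1, Upf2, Upf3b, Smg1 and Smg6) and below for 0, against 22.0% and 27.5% of all genes tested and 26.5% and 20.0% of the protein-coding ones. The median log2 fold change of the 9 was 0.068, of the 8 without Upf2 0.067, of all genes tested -0.016 and of the protein-coding genes tested 0.018. Because the contrast itself chose the set, nothing is read from these counts. Upf2 (0.50) and Smg6 (0.34) lay beyond the fold change limit of 0.263 on the log2 scale, and Upf1 (0.15) was the next below it.

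**Figure D3:**
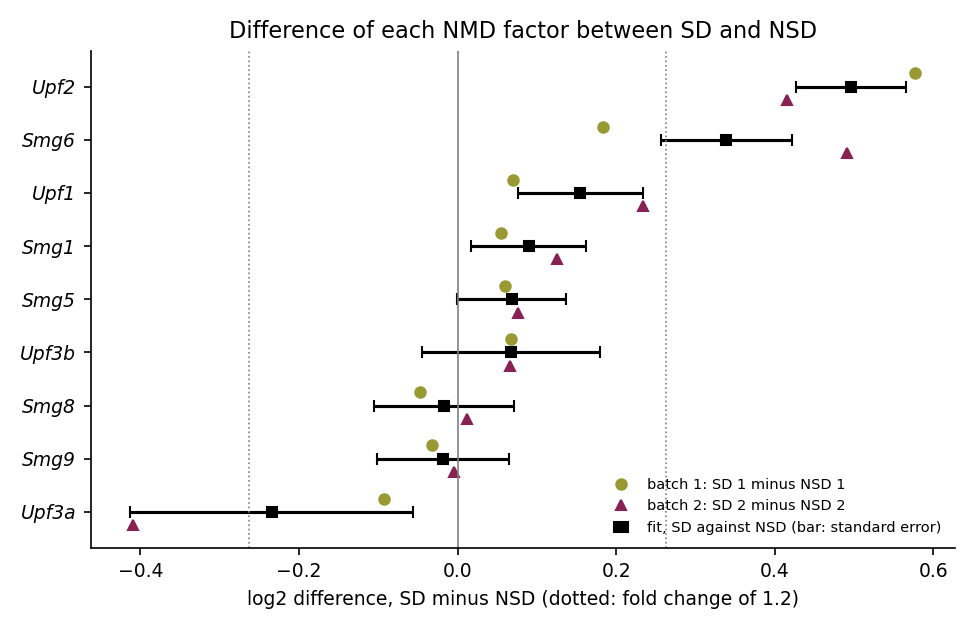
Log2 difference between SD and NSD for each NMD factor, as squares with the standard error of the edgeR fit, and as circles and triangles for the difference within batch 1 and batch 2. Upf2 lies at 0.58 and 0.42 and Smg6 at 0.18 and 0.49 in the batches, and the dotted lines mark a fold change of 1.2.

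Among 3712 protein-coding genes with a mean level within a factor of 2 of that of Upf2, Mettl16 had the most similar pattern over the 4 libraries, with a root mean square difference of 0.021 in log2 CPM after each gene was centred on its own mean. Eif5b (0.033), Sntb2 (0.040), Eif3a (0.043) and Sox5 (0.057) followed. Mettl16 had 37.3 and 39.7 CPM in NSD and 57.6 and 53.5 in SD, and Eif5b, a translation initiation factor, had 60.8 and 61.8 in NSD and 85.4 and 82.7 in SD. The same measure was 0.14 between Upf2 and Smg6 and 0.20 between Upf2 and Upf1. These genes were picked from 3712 by 4 values each, with the counts of Upf2 that chose the set, so nothing is read from their likeness.

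The genes of the 9 mRNAs differ widely in structure. Their main transcripts have 4 exons (Smg8) to 63 exons (Smg1), coding regions of 422 codons (Upf3a) to 3658 codons (Smg1), and 3′ untranslated regions of 623 bases (Smg9) to 4237 bases (Smg1), with 1261 bases in Upf2 and 1498 in Smg6. GENCODE lists transcripts of the class nonsense_mediated_decay, those with a stop codon that should trigger the pathway, for all 9 genes, from 1 of 5 transcripts of Smg8 to 11 of 22 of Upf3a and 8 of 23 of Upf2, where 69.1% of the protein-coding genes have at least 1. Counts per gene do not separate these transcripts from the coding ones. The bodies of Smg1, Smg6 and Smg8 hold 6 other genes of the table, which are TEC, lncRNA or pseudogene loci with at most 0.318% of the level of their host. Together these 6 loci had 213 and 173 counts in NSD and 54.1 and 35.9 in SD (1.28, 1.10, 0.300 and 0.190 CPM), and the mean of each was lower in SD. The part of such loci in the counts of their hosts was not tested.

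The rest of the pathway was followed through 59 other genes, all of which were tested. edgeR called 2 of them higher and 0 lower, where 0.770% of all genes were called higher and 2.33% lower. All 59 are protein-coding, and of the 15551 such genes tested edgeR called 148 higher and 84 lower. At an unadjusted p under 0.05 there were 4 higher and 5 lower, where 6.86% and 12.2% of all genes were. In the edgeR fit of protein-coding genes only there were 4 and 6, where 7.85% and 7.44% of its genes were. DESeq2 called 2 higher and 1 lower, where it called 8.81% of all genes in either direction. On the log2 scale the 59 genes had a median change of -0.007. This was above the -0.016 of all genes tested but below the 0.018 of the protein-coding ones. With the batch block 3 were called higher and 3 lower, where 2.99% and 8.47% of all genes were. Of the 15551 protein-coding genes tested, that fit called 587 higher and 512 lower. Both genes called by edgeR without the block encode enzymes that act after NMD has been triggered. Dcp2, the enzyme that removes the mRNA cap, had 129 and 128 CPM in NSD and 188 and 163 in SD. Both SD libraries were far above both NSD libraries, and Dcp2 rose by 0.45 on the log2 scale (standard error 0.085). The edgeR adjusted p was 0.0397, and 6.75e-04 with the block. Cnot6, a deadenylase subunit of the CCR4-NOT complex, had 47.2 and 43.4 CPM in NSD and 57.7 and 56.4 in SD and rose by 0.33 (standard error 0.071, edgeR adjusted p = 0.0480, 0.00228 with the block). Both lost the call without NSD library 2, at edgeR adjusted p values of 0.0549 for Dcp2 and 0.0802 for Cnot6. Dcp2 also lost it without NSD library 1 (0.0535) and Cnot6 without SD library 1 (0.0666), in fits that assume a lone library to vary like those of the other group. Neither was called without a count filter (0.0519 for Dcp2 and 0.0598 for Cnot6), with filterByExpr (0.0628 and 0.0721) or among protein-coding genes only (0.0544 and 0.0935), all edgeR adjusted p values.

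In the exon junction complex, which marks spliced junctions for UPF3, 0 of 7 genes were called by edgeR (1 at an unadjusted p under 0.05) and their log2 fold changes ran from -0.28 in Magohb to 0.26 in Rbm8a. Rbm8a (16.1 and 18.5 CPM in NSD, 20.8 and 20.6 in SD) was called with the block (edgeR adjusted p = 0.0423). Magoh and Magohb are near-identical copies whose reads the counting may have split. The core helicase Eif4a3 had 20.6 and 22.0 CPM in NSD and 20.3 and 22.1 in SD. edgeR called 0 of the 3 translation termination factors (0 at an unadjusted p under 0.05), with Gspt1, which encodes the release factor eRF3a, at 0.13 and Gspt2 at -0.045. Of the 8 cofactors of UPF1 and SMG1, edgeR called 0 (0 at an unadjusted p under 0.05), from -0.23 in Telo2 to 0.15 in Pnrc2. The 4 genes that bind the cap or the poly(A) tail had small positive values, from 0.10 in Ncbp1 to 0.15 in Pabpc1, and edgeR called 0 (0 at an unadjusted p under 0.05). For UPF1-dependent Staufen decay, Stau1 was at -0.0029 and Stau2 at 0.12, and neither was called.

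In decapping and 5′ to 3′ decay 4 of 8 genes had positive and 4 negative log2 fold changes, and edgeR called 0 lower. Dcp1b, an activator of DCP2, had 8.93 and 8.64 CPM in NSD and 6.73 and 6.49 in SD. Its log2 fold change was -0.41 (standard error 0.11, edgeR adjusted p = 0.0918), and it was called lower with the block (edgeR adjusted p = 0.0204) and by DESeq2 (adjusted p = 0.0398). Its paralogue Dcp1a was at 0.15. In deadenylation 12 of 13 genes were not called (3 of 13 were at an unadjusted p under 0.05, as were 3 of 8 in decapping and 19.1% of all genes), and the lowest value was that of Pan2 (-0.32, edgeR adjusted p = 0.122), which was called lower with the block (0.0361). Among 13 genes of the exosome and Ski complexes, which degrade RNA from the 3′ end, edgeR called 0 (1 at an unadjusted p under 0.05). Of these 13, 10 had negative log2 fold changes, as did 11805 of the 22338 genes tested and 7117 of the 15551 protein-coding ones. The values of the 13 ran from -0.34 in Dis3 to 0.15 in Exosc3. Dis3, a nuclease of the exosome whose exons share 684 bases with Pibf1 on the opposite strand, was called lower with the block (edgeR adjusted p = 0.0489). Xrn1, the 5′ to 3′ exonuclease, had 87.0 and 83.0 CPM in NSD and 76.8 and 73.4 in SD, a log2 difference of -0.18 (standard error 0.066, edgeR adjusted p = 0.184) that was under the fold change limit.

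**Figure D4:**
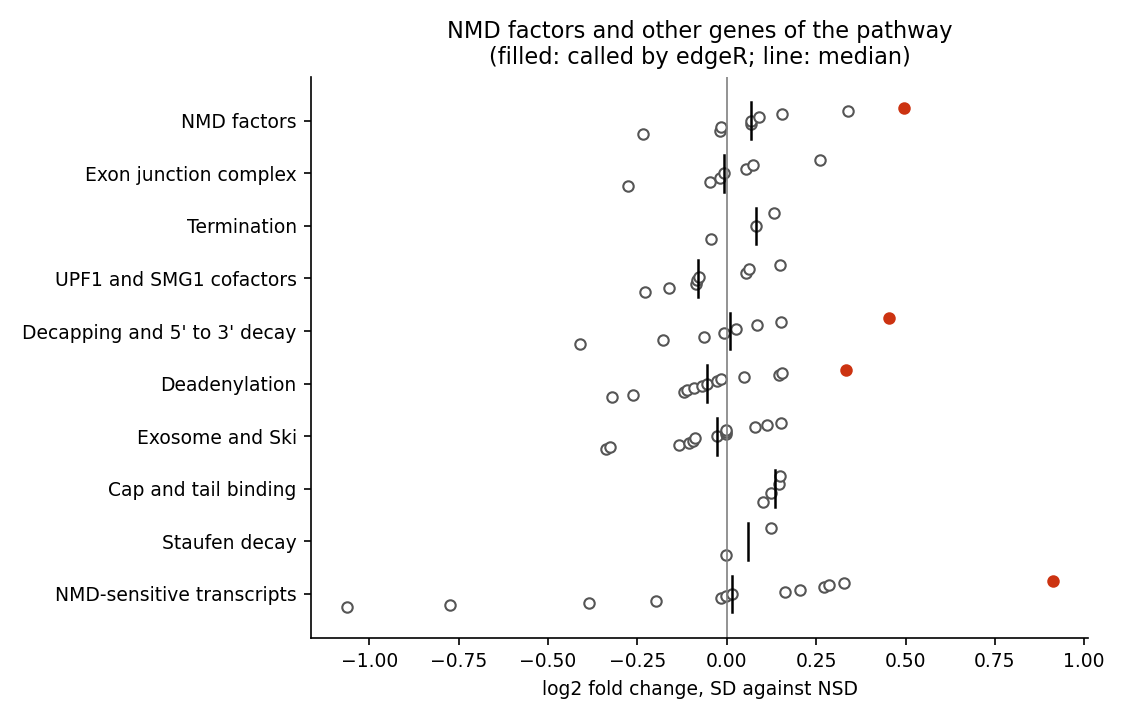
Log2 fold change of SD against NSD for the tested genes of the NMD factors, of 8 other groups of the pathway and of 13 NMD-sensitive transcripts, 1 circle for each gene, with filled circles for genes called by edgeR and a line at the median of each group. The medians lie between -0.080 and 0.136, and the filled circles are Upf2, Dcp2, Cnot6 and Arc.

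Transcripts known to be lowered by NMD had values of both signs. Of 13 such genes edgeR called 1 higher and 0 lower (3 and 2 at an unadjusted p under 0.05, against 6.86% and 12.2% of all genes), where 0.770% of all genes were called higher and 2.33% lower. With the block 2 were called higher and 2 lower, where 2.99% and 8.47% of all genes were, and DESeq2 called 2 higher and 1 lower, where it called 8.81% of all genes in either direction. Their median log2 fold change was 0.016, against -0.016 over all genes and 0.018 over the protein-coding genes tested. Arc, which is also an activity-induced gene, had 199 and 233 CPM in NSD and 386 and 426 in SD and rose by 0.91 on the log2 scale (standard error 0.10, edgeR adjusted p = 0.0328). With filterByExpr it was not called (edgeR adjusted p = 0.0628). Atf4, whose mRNA carries upstream open reading frames, had 85.8 and 92.4 CPM in NSD and 107 and 108 in SD. Its log2 fold change was 0.27 (standard error 0.068, edgeR adjusted p = 0.0698), and it was called with the block (0.00557). Gas5, a snoRNA host gene whose spliced RNA is degraded on ribosomes, had 6.67 and 4.75 CPM in NSD and 3.60 and 1.87 in SD. Its log2 fold change was -1.06 (standard error 0.30, edgeR adjusted p = 0.0946), and it was called lower with the block (4.88e-04). Gas5 shares 134 exon bases with Zbtb37 on the opposite strand, which had 1751% of its count. Robo3 was the other gene called lower with the block (log2 fold change -0.38, edgeR adjusted p = 0.164 without and 0.0308 with the block). Counts per gene cannot tell a decay-sensitive transcript from a stable one of the same gene.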

How the data were processed

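fosTRAP-seq libraries were made with a stranded total RNA kit. Reads were base-trimmed by the authors, then aligned with STAR 2.7.8a to the mouse genome mm39 (GRCm39) and assigned to Ensembl release 110 genes by the Partek E/M model. The authors deposited estimated counts per gene without normalization, 55.5% of genes having a value that is not whole. Here counts were rounded and genes were required to exceed 5 in all libraries, which left 22338. SD was compared with NSD in R 4.3.3 by edgeR 4.0.16 (TMM scaling), with its quasi-likelihood test on condition and Benjamini-Hochberg adjustment over all genes. The study used DESeq2 (here 1.42.0, an alternative) with the same thresholds. Standard errors are the log2 fold change over the root of the quasi-likelihood F. Log2 CPM values carry a prior count of 2. At 153511673 to 195910205 counts per library, counting error is small, and the 2 libraries per group set the precision. The p-values set the difference between groups against the spread between these pools, which the fit estimates with help from all genes. Each pool held 5 mice, so the spread between single mice was not measured.

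Batch numbers match replicate numbers and mark a batch in the labels, so they pair the libraries (correlation of deviations 0.178 across genes). The 9 genes and all lists were chosen with earlier results of these data known. Named are the 9 genes, every called gene, the largest rise and fall of each pathway list, and Magoh as the copy of Magohb. A few further genes were chosen after their values were seen (Eif4a3, Dcp1a, Xrn1, Zbtb37, Pibf1). Also named are NMD-sensitive transcripts, genes overlapping a member, and the 5 genes most like Upf2. Skic2, Skic3 and Skic8 were matched by older symbols. Exon lengths came from GENCODE M39, same build, and promoters from RefSeq, GRCm38.p6, which matched 9 of 9. A gene counted among the other pathway genes is not reported here. The fits were tested on simulated data.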

Additional observations from a re-analysis of the deposited data

How the results depend on the processing

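The log2 fold change of Upf2 stayed between 0.46 and 0.54 under every alternative run and that of Smg6 between 0.26 and 0.43. The median over the 9 genes stayed within the spread between libraries. The number of the 9 called was 1 in the edgeR fit, 2 with the batch as a block or with DESeq2, 0 with edgeR's filterByExpr, and 1 to 2 with each library left out (2 without SD library 1). The other pathway genes called numbered 2, and 6 with the block, 0 without a count filter, 0 with filterByExpr and 0 with protein-coding genes only (10, 9 and 10 at an unadjusted p under 0.05 in edgeR, against 17.5%, 18.1% and 15.3% of all genes in those fits), and 0 to 2 with a library left out. The NMD-sensitive genes called numbered 1, and 3 with DESeq2, 4 with the block, 0 with filterByExpr (5 at an unadjusted p under 0.05 in edgeR, against 18.1% of all genes), and 1 to 2 with a library left out. Over all genes the calls numbered 692, and 1967 with DESeq2, 2559 with the block, 130 without a count filter, 1 with filterByExpr, 90 with protein-coding genes only, and 202 (without NSD library 1) to 2247 (without SD library 1) with a library left out. The cause of these changes was not tested. Leaving out a library leaves 1 in its group, and the fit then takes its spread from the other group. The highest over the lowest level per kilobase was 18.9, and 10.2 with the longest transcript as the length.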
